A study of Mus musculus with 6 samples.

Results

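The MyoD family consists of 4 basic helix-loop-helix transcription factors, encoded by Myod1, Myf5, Myf6 (also called MRF4) and Myog (myogenin). Every probe set annotated to 1 of these symbols alone was taken, which gave 5 probe sets of the 45037 tested, and 4 genes of 18193 with a probe set of their own. Transcript levels were measured in C2C12 cells, a mouse line of continuously growing muscle precursors. The differentiated cultures were harvested on day 6 in 2% horse serum, and the proliferating cultures were kept in 20% serum. Each group had 3 RNA samples, hybridized to 1 Affymetrix mouse genome-wide expression array each. All cells are of the same line, and no drug treatment is stated. Besides serum amount, the groups differ in serum species (fetal calf for the proliferating cultures) and in the 6 days after the shift. Gelatin-coated dishes are described for inducing differentiation, and no coating is stated for the proliferating cultures. These differences go with the group and cannot be told apart. The study states that low-serum cultures still hold mononucleated cells beside myotubes. Each RNA sample combined plates grown together with plates set up on following days, so replicate arrays differ as pooled samples do. In such bulk samples, fewer cells of a type and less RNA per cell cannot be told apart.

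Factors of this family bind the E-box as dimers with the ubiquitous E proteins, and Id proteins block them by taking up the E proteins. In the embryo, Myf5 and Myod1 commit precursors to the muscle lineage, whereas Myog is needed for myoblasts to form myotubes. Myf6 has a part in commitment and is later the prevailing family member of mature fibres.

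The values are MAS 5.0 signals on a linear scale. Median signals lay between 72.3 and 81.4 on the differentiated arrays and between 68.0 and 73.0 on the proliferating arrays. The brightest of 27 probe sets for Bacillus transcripts, which mouse RNA should not contain, lay between 51.9 and 87.0 and was taken as the background of its own array. Probe sets differ in affinity, so a signal was compared with the background and between groups, and no member's level was ranked against another's. All 6 markers of skeletal muscle were higher in differentiated cells, and their summed signal ran from 52390 to 54975 in differentiated and from 4338 to 5464 in proliferating cultures. Of 4 measured adipocyte markers 1 (Cebpa) was higher in differentiated cells, with a summed signal of 613 to 747 in differentiated and 348 to 369 in proliferating cultures. Cebpa alone averaged 574 in differentiated and 304 in proliferating cells. Of 4 smooth muscle markers 1 (Acta2) was higher, with sums of 18124 to 18707 in differentiated and 10446 to 11920 in proliferating cultures. These sums are mostly Acta2, which averaged 17624 in differentiated and 10490 in proliferating cells. Myh11, Smtn and Cnn1 did not pass, with log2 fold changes of 0.59, 0.18 and -0.69. Of the measured markers of osteoblasts, endothelium, leukocytes and neurons, 0 passed in limma. The part of other cells in the results was not tested.

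Only Myog passed the test among the 4 members. Myog rose and was low but measurable in proliferating cells, Myod1 and Myf5 were well above background in both groups, and Myf6 was near or under background. Over all probe sets, limma called 6.14% higher and 6.43% lower in differentiated cells at a Benjamini-Hochberg adjusted p under 0.05, and with 1 probe set per gene 8.67% of genes were higher and 9.05% lower.

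Myog had signals of 6668, 6839 and 7055 on the differentiated arrays, against 161.5, 175.2 and 180.0 on the proliferating arrays. Every differentiated array was far above every proliferating one. The means were 6854 ± 194 in differentiated and 172 ± 9.60 in proliferating cells (SD, n = 3 each), a ratio of 39.8. On the log2(signal + 15) scale, on which all tests were made, the fold change was 5.20 (standard error 0.10, 95% interval 4.99 to 5.40, adjusted p = 5.7e-12 from limma). The signal was 95.9 to 128 times the background of its array in differentiated cells and 1.86 to 3.23 times in proliferating cells. Thus the Myog probe set (1419391_at) was above background on all 3 proliferating arrays. The arrays of a group lay close together at this probe set, with a coefficient of variation of 2.83% in differentiated and 5.57% in proliferating cells.

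Myod1 was already bright in myoblasts. Its main probe set (1418420_at) had signals of 1757, 1550 and 1616 on the differentiated arrays and of 1209, 1392 and 1455 on the proliferating arrays. The groups did not overlap, but the gap between the lowest differentiated and the highest proliferating array was smaller than the range within either group. Groups that do not overlap were found at 27.2% of all probe sets. The means were 1641 ± 106 in differentiated and 1352 ± 127 in proliferating cells (SD, n = 3 each). On the log2 scale the change was 0.28, with a 95% interval of 0.06 to 0.50. This did not pass (limma, adjusted p = 0.11; unadjusted p = 0.018). On proliferating arrays the signal was 13.9 to 26.1 times the background, and on differentiated arrays 21.7 to 33.9 times. The other Myod1 probe set (1447675_x_at) had signals of 39.2, 33.1 and 26.7 in differentiated and of 36.7, 4.20 and 27.9 in proliferating cells. All 6 of these values lay under the background, and no fold change was read from them.

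Myf5 (1420757_at) was also well above background in both groups, by 9.10 to 13.3 times in differentiated and 8.32 to 14.4 times in proliferating cells. Its signals were 690.7, 649.0 and 661.8 on the differentiated arrays and 724.1, 636.9 and 803.4 on the proliferating arrays. The differentiated values lay within the range of the proliferating ones. The log2 fold change was -0.10 (standard error 0.12, limma, adjusted p = 0.68). Its 95% interval, from -0.36 to 0.15, leaves room for small changes in either direction.

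Myf6 (1419150_at) was dim. Signals were 26.1, 99.3 and 21.5 on the differentiated arrays and 21.5, 45.9 and 9.50 on the proliferating arrays. Differentiated replicate 2 was the only array above its background, at 1.39 times, and the groups overlapped. The fitted log2 fold change of 0.55 (standard error 0.56, limma, adjusted p = 0.65) has a 95% interval of -0.67 to 1.78, and without differentiated replicate 2 it was 0.03. A fold was not read from this probe set. A rise of Myf6 was thus not detected.

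**Figure D1:**
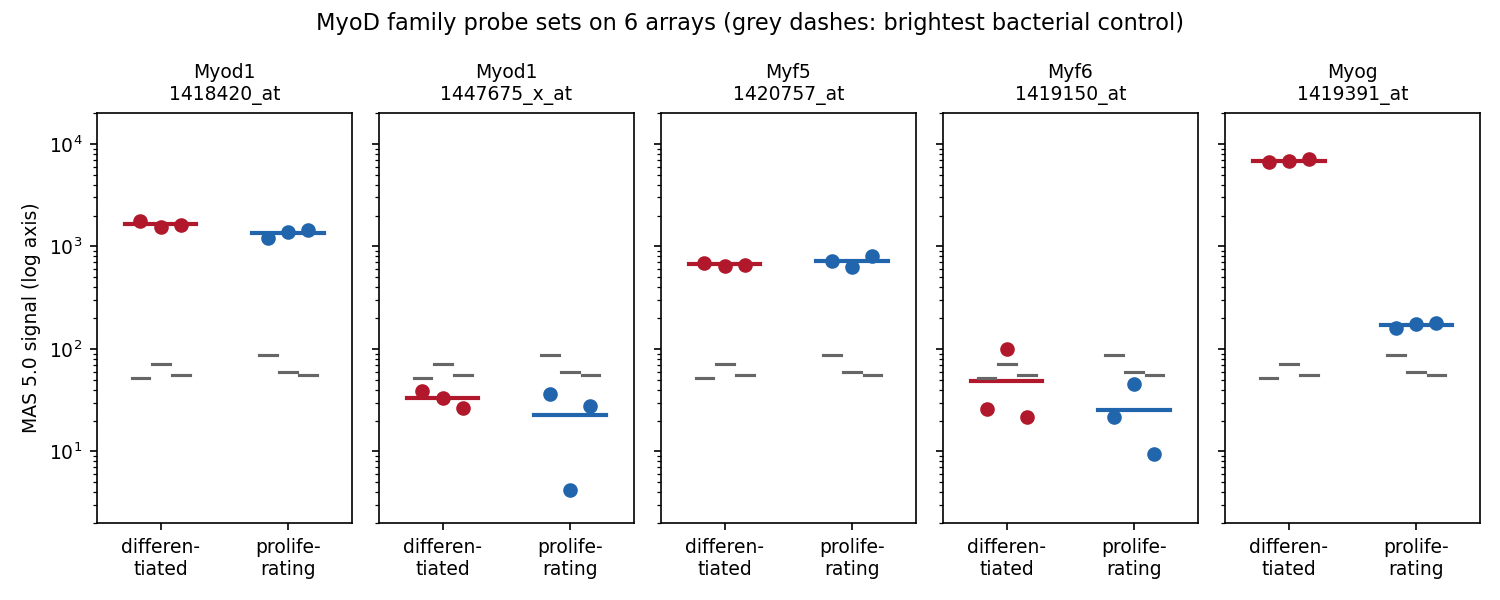
MAS 5.0 signal (vertical log axis) of the 5 probe sets of the MyoD family in differentiated and proliferating C2C12 cells. Points are the 3 arrays of a group, coloured lines their means, and grey dashes the brightest bacterial control of each array. The Myog points lie at 6668 to 7055 in differentiated and at 161.5 to 180.0 in proliferating cells, whereas the Myod1 and Myf5 points of both groups lie well above the dashes at the main probe sets.

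The members were next compared on the same array, since such a difference does not depend on how the arrays were scaled, apart from the pseudocount. It also holds the affinities of both probe sets, so only its change between groups was read. Myog minus Myod1 was 1.91, 2.13 and 2.12 log2 units on the differentiated arrays and -2.79, -2.89 and -2.91 on the proliferating arrays. The change of Myog thus exceeded that of Myod1 by 4.92 (standard error 0.08), and that of Myf5 by 5.30 (standard error 0.11). Myod1 minus Myf5 was 1.28 ± 0.05 in differentiated and 0.89 ± 0.20 in proliferating cells (SD, n = 3 each), without overlap. The difference of 0.38 between the changes of Myod1 and Myf5 was small beside those with Myog. In each of these 3 pairs the exact permutation p was 0.1, 2-sided, the smallest that 3 against 3 arrays allow, and it was 0.15 when adjusted over all 6 pairs. The other 3 pairs involve Myf6, which was above background on 1 of 6 arrays, and nothing was read from them.

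**Figure D2:**
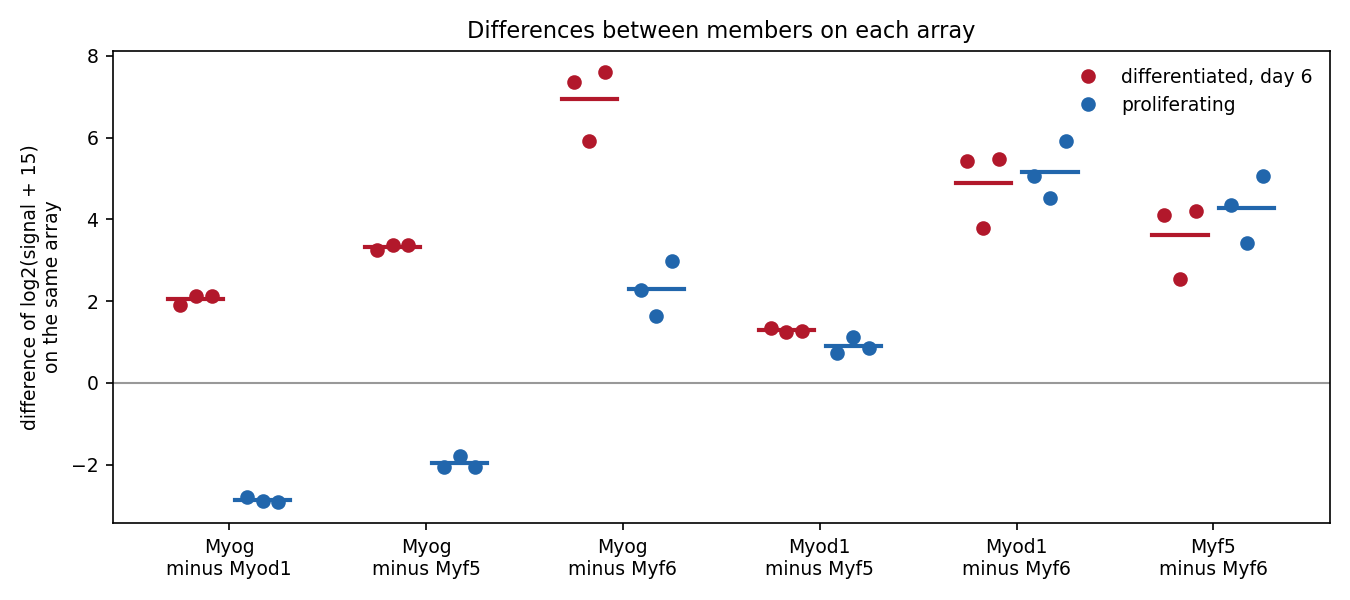
Difference of log2(signal + 15) between pairs of MyoD family members on the same array (vertical axis) for the differentiated and proliferating arrays. Points are arrays and lines group means, and Myog minus Myod1 averages 2.05 in differentiated and -2.87 in proliferating cells. Pairs with Myf6 hold a value near or under background.

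The promoters of Myog, which passed, and of Myf5, which did not, are shown because RefSeq sequence (GRCm38.p6) was at hand for these 2 of the 4 members. Each runs from 250 bases before to 50 after the annotated start. Capitals mark matches to the E-box (CANNTG, the motif bound by the family) and to a core of the MEF2 motif (TANNNNTA, where each inner letter is A or T). Both motifs read as the same pattern on the other strand, and no matches overlapped.
Myog, chr1:134289754-134290053, plus strand: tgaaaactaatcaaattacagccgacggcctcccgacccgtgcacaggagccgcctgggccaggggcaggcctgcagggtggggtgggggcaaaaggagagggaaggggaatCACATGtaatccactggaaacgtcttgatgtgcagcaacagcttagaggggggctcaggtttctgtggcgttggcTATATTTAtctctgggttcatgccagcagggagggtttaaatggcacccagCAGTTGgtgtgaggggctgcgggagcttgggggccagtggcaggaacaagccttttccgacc
Myf5, chr10:107486085-107486384, minus strand: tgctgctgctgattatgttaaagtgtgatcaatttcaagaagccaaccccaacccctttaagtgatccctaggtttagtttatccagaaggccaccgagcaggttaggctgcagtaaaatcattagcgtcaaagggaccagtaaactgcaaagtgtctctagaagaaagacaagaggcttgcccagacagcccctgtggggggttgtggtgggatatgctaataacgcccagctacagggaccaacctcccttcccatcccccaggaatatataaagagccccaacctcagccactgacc

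The Myog window held 2 E-boxes, whose first bases lie 138 and 12 bases before the start, and 1 MEF2 core, 63 bases before it. The Myf5 window held neither. Of 32851 promoter windows of this length, 72.3% held an E-box, 9.32% a MEF2 core and 7.01% both. A match of letters is not a binding site, and binding was not measured.

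The genes around the family were followed in 8 lists of 88 genes, with 84 measured, of which 32 were higher, 13 lower and 39 did not pass. Of the 32 higher genes, 21 are on the list of known targets. Over all genes 8.67% were higher and 9.05% lower, which is the background for the counts of each list below. Each gene is given by its brightest probe set, and the median log2 fold change over all 18193 genes was 0.06.

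The E proteins, the dimer partners of the family, did not move together. Of 3, 1 was lower and 2 did not pass. Tcf3, which encodes E12 and E47, had signals of 503.8, 770.9 and 625.9 in differentiated and of 1027, 1360 and 1154 in proliferating cells. It fell by 0.89 on the log2 scale (standard error 0.15, limma, adjusted p = 0.0015), and 2 of its 3 probe sets passed. Tcf4 was at 802 ± 92.2 in differentiated and 507 ± 217 in proliferating cells (SD, n = 3 each), with an overlap at proliferating replicate 1. Its log2 fold change of 0.72 did not pass (adjusted p = 0.053), but it passed in 8 of 16 alternatives, among them quantile normalization, the replicate block and the mean of its probe sets. Over all 16 alternatives the adjusted p ran from 0.00083, without proliferating replicate 1 (1.04), to 0.27 with eBayes without trend. At 4 of the 6 Tcf4 probe sets the test called a rise, and their mean was at 0.58 (limma, adjusted p = 0.033). The brightest one changed in the same direction and narrowly missed the threshold. Tcf12 (HEB) was at 0.34 (adjusted p = 0.097), and 0 of its 5 probe sets passed.

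Id proteins lack the basic region and keep E proteins from binding DNA. Of 4 Id genes, 3 were lower and 1 did not pass. Id3 had signals of 261.7, 235.4 and 255.6 on the differentiated arrays, against 1398, 1778 and 1482 on the proliferating arrays. Its log2 fold change was -2.55 (standard error 0.12, limma, adjusted p = 2.7e-08). Id1 and Id2 changed by -1.85 and -2.10 (standard errors 0.17 and 0.18), and in all 3 genes the groups were far apart. Id4 lay around background, at 72.1 ± 33.5 in differentiated and 57.4 ± 20.2 in proliferating cells (SD, n = 3 each).

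Of 13 other factors reported to restrain the family, 2 were lower, 2 higher and 9 did not pass, and the median was -0.12. Shares over all genes were 9.05% lower and 8.67% higher, and nothing was read from counts this small. Twist2, a helix-loop-helix repressor, was at 158 ± 11.8 in differentiated and 636 ± 61.2 in proliferating cells (SD, n = 3 each), and fell by 1.91 on the log2 scale (standard error 0.15, limma, adjusted p = 2.3e-06). Snai2, a zinc finger repressor that can occupy E-boxes, fell by 0.67. Zeb1, a repressor with E-box-like targets, rose by 0.81, at 2330 ± 80.9 in differentiated and 1318 ± 32.5 in proliferating cells (SD, n = 3 each). Bhlhe40 rose by 0.52 (adjusted p = 0.020), a call that ended without any of 4 single arrays, namely differentiated replicate 1 (0.48) or 2 (0.46) or proliferating replicate 2 (0.45) or 3 (0.48).

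Factors that act upstream of the family in the embryo mostly did not pass the test. Of 12 measured genes of upstream regulators (Pax3, Pax7, Eya and others), 1 was higher, 1 lower and 10 did not pass. Over all genes 8.67% were higher and 9.05% lower, and nothing was read from these counts. Of 4 Eya genes, which encode coactivators of homeodomain proteins, Eya4 was higher and Eya1 lower, while Eya3 (-0.35) did not pass and Eya2 was at background on all 6 arrays. Eya4 was at 844 ± 102 in differentiated and 452 ± 103 in proliferating cells (log2 fold change 0.89, limma, adjusted p = 0.0022) and Eya1 at 258 ± 17.9 in differentiated and 492 ± 57.2 in proliferating cells (-0.89, adjusted p = 0.0011; SD, n = 3 each). With all probe sets of the gene averaged, neither of these passed (Eya4 0.49, Eya1 -0.41). Pax7, a marker of satellite cells, was under background on all 6 arrays and was named after its values were seen.

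MEF2 factors bind DNA beside the family and act with it. Of 4, 3 were higher. Mef2c had signals of 605.5, 593.4 and 559.3 on the differentiated arrays, against 123.3, 41.3 and 87.7 on the proliferating arrays, of which 2 were above background. Mef2a reached 2757 ± 77.5 in differentiated cells, against 988 ± 176 in proliferating cells (SD, n = 3 each; log2 fold change 1.48, limma, adjusted p = 2.5e-06). Mef2d rose by 1.10 (adjusted p = 5.9e-05) at its brightest probe set, the only 1 of 3 to pass, and did not pass with all 3 averaged (0.49). Mef2b was above background on 1 of 6 arrays.

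Of 15 measured cofactors, 2 were higher, 3 lower and 10 did not pass, with a median of -0.06. Over all genes 8.67% were higher and 9.05% lower, and nothing was read from counts this small. Ezh2, a histone methyltransferase that restrains muscle genes in myoblasts, had the largest change at -2.08 (standard error 0.13, limma, adjusted p = 2.0e-07), with 291 ± 38.6 in differentiated and 1273 ± 73.0 in proliferating cells (SD, n = 3 each). The deacetylase Hdac1 fell by 0.66, and without proliferating replicate 1 the change was -0.55 and just missed the threshold. The acetyltransferase Kat2b (PCAF), which acetylates MyoD, rose by 0.90, but 1 of its 3 probe sets passed and their mean did not (0.68). For Setd7 the brightest probe set passed (0.62, adjusted p = 0.019), while the mean of both probe sets was at -0.09, so its direction depended on the probe set. That call also ended without differentiated replicate 1 (0.64) or 2 (0.45) or proliferating replicate 2 (0.51) or 3 (0.63).

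Cell cycle regulators that counter or assist the family changed in both directions, with 3 of 8 higher and 3 lower. The shares over all genes were 8.67% and 9.05%. Cdkn1a (p21), a cyclin-dependent kinase inhibitor, had signals of 10478, 11644 and 9227 in differentiated and of 3764, 3638 and 3626 in proliferating cells (log2 fold change 1.50, limma, adjusted p = 8.1e-07). Cyclin D1 (Ccnd1), which holds MyoD in check in cycling myoblasts, was at 918 ± 24.2 in differentiated and 2568 ± 95.6 in proliferating cells (SD, n = 3 each), and it fell by 1.47. The retinoblastoma gene Rb1 rose by 1.34 and its relative Rbl1 fell by 1.97, but neither passed with all probe sets of the gene averaged (0.62 and -0.51).

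Of 25 known target genes of the family, 21 were higher, 0 lower and 4 did not pass. The list's median was 4.27 on the log2 scale. In 5 of the 21 genes that rose the proliferating group was wholly at background, which leaves only a lower bound of the fold, and using those bounds the median over the list was 4.24. Mybph, a myosin-binding protein, was at least 222-fold higher in differentiated cells. Acta1 (skeletal actin) had signals of 25749, 27243 and 26391 on the differentiated arrays, against 232.1, 286.8 and 278.9 on the proliferating arrays, and rose by 6.56 on the log2 scale (standard error 0.10, limma, adjusted p = 1.6e-12). Actc1 (cardiac actin) and Myl1 (a myosin light chain) rose by 6.57 and 6.51, with 1 of 3 proliferating arrays above background for Actc1. The 4 targets that did not pass were named after their values were seen. Rapsn, which clusters acetylcholine receptors, was bright in both groups, at 1179 ± 104 in differentiated and 1209 ± 202 in proliferating cells (SD, n = 3 each). So was Cdh15 (M-cadherin), at 2063 ± 215 in differentiated and 1868 ± 88.0 in proliferating cells. Chrne, the adult receptor subunit, was at background on all 6 arrays. Cav3 was above background on 2 differentiated arrays alone (1.63, adjusted p = 0.068), and it passed in 3 of 16 alternatives. The list holds targets known from muscle cells, so its direction is no independent evidence. Of its 19 genes with a promoter window, 18 held an E-box and 3 a MEF2 core in any of their windows. Of all windows, counted singly, 72.3% and 9.32% did. A gene with several windows has more occasions for a match, so the shares are not like measures. Nothing was read from setting them side by side. Counted by gene, an E-box was held by 2 of 2 E proteins, 1 of 3 Id genes and 4 of 6 other repressors. It was held by 4 of 8 upstream factors, 2 of 4 MEF2 factors, 9 of 13 cofactors and 3 of 5 cell cycle regulators.

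**Figure D3:**
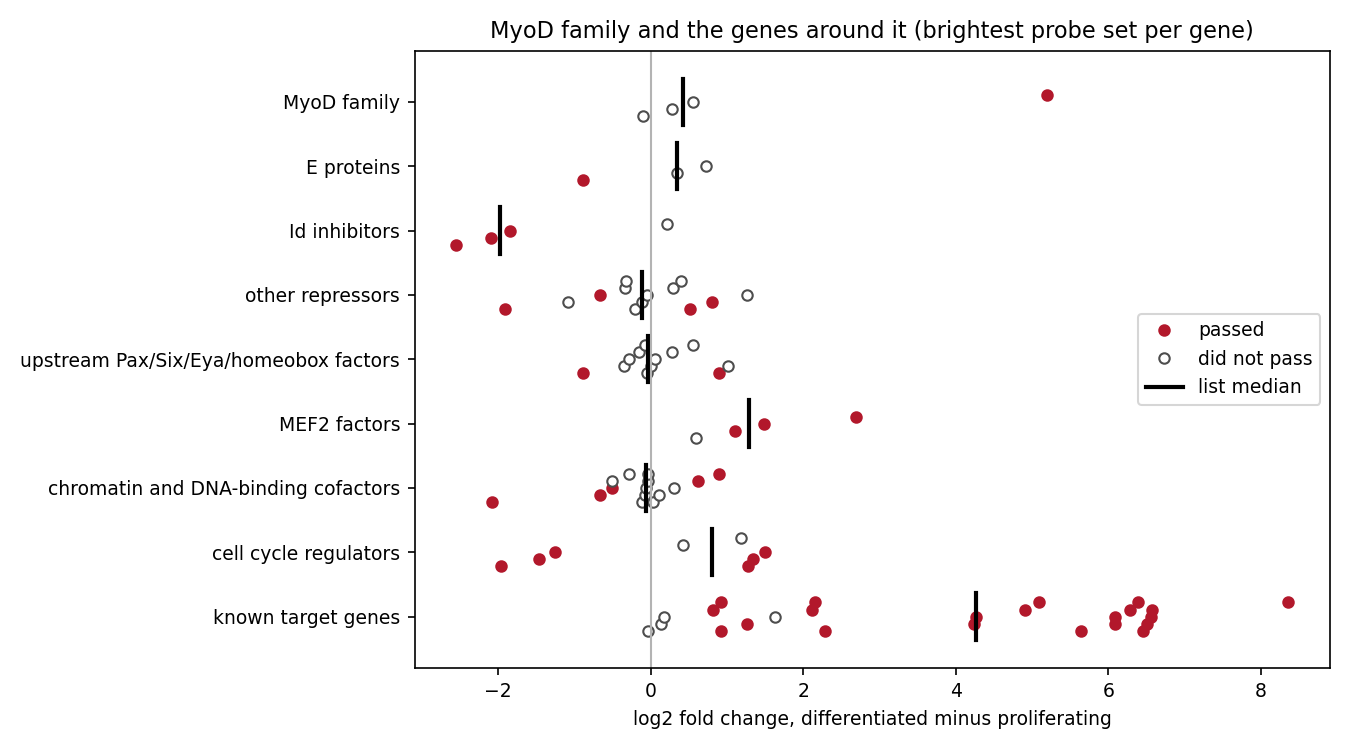
Change between differentiated and proliferating cells (horizontal axis, log2 fold) of the MyoD family and of the genes in 8 lists around it (vertical axis). Filled points passed at an adjusted p under 0.05, open points did not, and black lines are list medians, 4.27 for the known target genes and -1.98 for the Id inhibitors. For genes at background in either group the fitted value is plotted, which is no bound.

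The protein-coding genes next to each member were examined as well, up to 2 on either side in the RefSeq order. Of 12 such neighbours other than the members themselves, 8 were measured, and the others were not analysed here. Of these 8, 2 were higher and 1 lower, against 8.67% and 9.05% of all genes, and nothing was read from counts this small. All 3 that passed flank Myog, and they changed in both directions. Mybph among them is also on the list of known targets. Mybph, which lies beyond Adora1 on one side of Myog, had signals of 14330, 14667 and 15124 on the differentiated arrays and of 28.1, 39.3 and 23.4, all at background, on the proliferating arrays. Ppfia4 (a liprin), adjacent on the other side, was at 248 ± 62.9 in differentiated and 89.2 ± 52.3 in proliferating cells (SD, n = 3 each), and rose by 1.43 on the log2 scale (standard error 0.35, limma, adjusted p = 0.017). The groups did not overlap, but the call ended without differentiated replicate 1 (1.24) or proliferating replicate 1 (1.08). Tmem183a, the next gene, was lower, at 883 ± 83.8 in differentiated and 1423 ± 147 in proliferating cells (SD, n = 3 each; -0.68, adjusted p = 0.0012).

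Around Myod1, the 4 neighbours Ush1c, Otog, Kcnc1 and Sergef did not pass, with log2 fold changes of 0.84, 1.53, 0.12 and -0.11. Otog came closest (adjusted p = 0.068), at 253.7, 297.2 and 250.8 in differentiated and 115.0, 19.5 and 191.8 in proliferating cells. Otog passed in 5 of 16 alternatives. They were dim probe sets left out, the replicate block and proliferating replicate 3 left out (2.07). The others were both thresholds of a regularized test, a version of that in the methods. Myf5 and Myf6 are each other's neighbours, and Lin7a beside them was under background on all 6 arrays.

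The Mybph promoter is shown beside that of Myog because Mybph had the larger rise. It held 1 E-box, in capitals, whose first base lies 79 bases before the start, and no MEF2 core.
Mybph, chr1:134193198-134193497, plus strand: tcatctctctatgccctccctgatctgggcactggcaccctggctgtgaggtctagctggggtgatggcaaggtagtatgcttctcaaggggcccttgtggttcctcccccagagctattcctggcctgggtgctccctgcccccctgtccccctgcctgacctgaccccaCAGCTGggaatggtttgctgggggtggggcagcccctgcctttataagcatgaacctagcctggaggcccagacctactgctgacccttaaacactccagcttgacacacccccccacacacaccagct

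**Figure D4:**
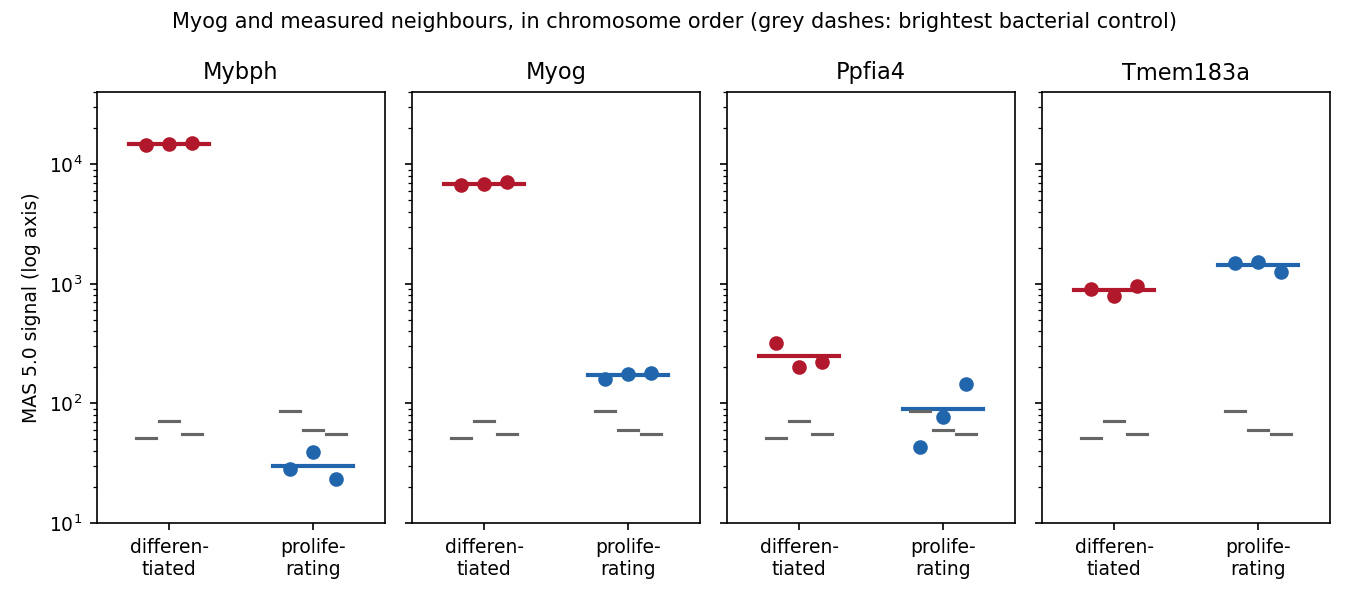
MAS 5.0 signal (vertical log axis) of Myog and its measured neighbours in differentiated and proliferating cells. Points are arrays, coloured lines group means and grey dashes the brightest bacterial control of each array. Mybph averages 14707 in differentiated and 30.3 in proliferating cells, while Tmem183a is lower in differentiated cells.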

How the data were processed

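RNA of 3 differentiated and 3 proliferating C2C12 samples was hybridized to Affymetrix arrays, and images were analysed with MAS 5.0 per the labels and the study's methods. The authors deposited signal intensity on a linear scale, with each array scaled to a trimmed mean of 250.0. The methods' GCRMA step needs probe-level data and was not repeated. The table has 45101 probe sets, 64 of which are the manufacturer's controls and were dropped. A pseudocount of 15 was added, values were taken to log2, and all 45037 probe sets entered 1 linear model in R 4.3.3 (limma 3.58.1, eBayes with trend, 2-sided, differentiated minus proliferating) with Benjamini-Hochberg adjustment. The added pseudocount understates the change of dim probe sets. The fit was also run on simulated data with changes planted only in brighter probe sets, which says nothing of dim ones. Its outcome is not given here. Probe sets were named by the platform annotation (34945 with 1 symbol, 932 with several, 9160 with none), and 34741 of the 34945 matched RefSeq by gene ID. The brightest probe set by mean signal stood for a gene with several.

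A bound is the mean log2 signal of the bright group minus that of the dim group, with each dim value raised to the bacterial control of its array. Members and lists were chosen with earlier results of these data known. From longer lists, the genes named are the up to 4 passing genes with the largest change whose higher group was above background on every array, and lists of up to 4 genes are named in full. Also named are the nearest neighbours of each member and the 5 genes whose profile was most like that of a member that passed. The p-values measure the spread between these pools, which may be technical, and 3 arrays per group limit the precision. Tables were handled in Python 3.11.15.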

Additional observations from a re-analysis of the deposited data

How the results depend on the processing

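Of the 4 members, Myog passed and Myod1, Myf5 and Myf6 did not under every alternative run. These varied the pseudocount, normalization, dim probe sets, the variance model, the replicate block, single arrays left out and averaging of probe sets. A version of the methods' regularized test was run as well. With single arrays left out, the log2 fold change of Myog was 5.16 to 5.23, of Myod1 0.20 to 0.33, of Myf5 -0.19 to -0.03 and of Myf6 0.03 to 0.89. Adjusted p-values of Myod1 ran from 0.078 with quantile normalization to 0.42 with eBayes without trend. In the version of the methods' regularized test, run here on MAS 5.0 signals, Myod1 had an unadjusted p of 0.018 but was below 1.5-fold. With the pseudocount at the 40th percentile, the change of Myog exceeded those of Myod1 and Myf5 by 4.69 and 5.06. With eBayes without trend, 1367 probe sets were higher and 1302 lower, against 2765 and 2894. With the replicate block, Myog changed by 5.20 (limma, adjusted p = 9.8e-11, and at most 1.8e-04 over its alternatives), and 2580 probe sets were higher and 2707 lower. Deviations of same-numbered arrays correlated at 0.001 to 0.012 across probe sets, and those of other pairs at -0.015 to 0.005. No strong shared deviation was thus seen, which cannot tell whether same-numbered cultures were handled together. With all probe sets of a gene averaged, Tcf12 (-0.06), Setd7 (-0.09) and Kcnc1 (-0.35) turned sign, and the mean holds other probe sets by construction. With a single array left out, 5 genes that did not pass turned sign, and the cause was not tested: Mef2b ran from -0.08 to 1.26, Kcnc1 from -0.56 to 0.59, Sergef from -0.29 to 0.01, Lin7a from -0.23 to 0.79 and Rapsn from -0.16 to 0.08. With eBayes without trend the calls of Tcf3, Snai2, Bhlhe40, Eya4, Kat2b, Hdac1, Setd7, Ppfia4 and Tmem183a ended, and with probe sets averaged that of Zeb1 did (0.86). Of the genes named, Tcf4, Otog and Cav3 did not pass but did in 8, 5 and 3 of 16 alternatives. For Cav3 these were both thresholds of the regularized test and leaving out differentiated replicate 2 (2.08).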

Other observations

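Over the 18192 other genes, the 5 whose centred log2 profiles over the 6 arrays lay closest to that of Myog were Hsd11b1, which activates glucocorticoids, Myom2, a protein of the sarcomeric M-band, Cobl, an actin nucleator, Fgf21, a secreted growth factor, and Ryr1, the calcium release channel of skeletal muscle. Their root mean square differences from Myog were 0.131, 0.164, 0.182, 0.210 and 0.263 log2 units. The 6 arrays fall into 2 groups, so this likeness is mostly a rise of the same size. Of the 5 genes, Myom2 alone was above background in proliferating cells, at 7276 ± 401 in differentiated and 215 ± 38.2 in proliferating cells (SD, n = 3 each). The others have bounds of at least 15.4-fold (Hsd11b1), 16.0-fold (Cobl), 26.7-fold (Fgf21) and 28.8-fold (Ryr1) higher in differentiated cells, and their place in this order depends on the pseudocount.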
